A study of Mus musculus with 6 samples.

Results

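The genes described here belong to the glutathione and thioredoxin systems, which remove peroxides and reactive compounds. They are the glutathione S-transferases (Gst of the alpha, mu, pi, theta, omega, zeta and kappa classes, and the membrane-bound Mgst), the glutathione peroxidases (Gpx), the peroxiredoxins (Prdx), the thioredoxins (Txn), the thioredoxin reductases (Txnrd) and both subunits of glutamate-cysteine ligase (Gclc and Gclm). The rule that picked them reads only the gene name on the array, but earlier results of these data were known when they were chosen. The names picked out 45 genes, and 41 of them could be tested among 22991 genes in all. Of the other 4, Mgst2 had a spot marked as an outlier on 1 control array, and the probes of Gpx5, Gpx6 and Gstt4 were well above background on 0, 1 and 2 of the 6 arrays.

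The samples were hearts of male C57BL/6 mice, 8 weeks old by the labels, taken 21 days after myocardial infarction, so every mouse in both groups had an infarct. It was produced by tying off the left anterior descending branch of the coronary arteries. One group (n = 3 arrays) had received an antagomir against miR-433, a chemically modified antisense RNA that blocks a microRNA, and the control group (n = 3 arrays) a scrambled sequence. Each was injected into the tail vein at 80 mg/kg on 3 consecutive days. The labels do not say which part of the heart was taken, nor whether each array is a separate mouse, and p-values therefore measure the spread among these samples, which may be technical. No heart without an infarct was analysed here.

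Glutathione is a small peptide that carries a reactive thiol. Glutamate-cysteine ligase makes its precursor in the rate-limiting step, transferases attach glutathione to electrophiles, and many of the peroxidases use it to reduce hydrogen peroxide and lipid peroxides. Most peroxiredoxins reduce the same peroxides with electrons from thioredoxin, which thioredoxin reductase recharges with NADPH. In heart muscle, mitochondria are a main source of peroxide, and separate members of these families work in the cytosol, the mitochondria and the endoplasmic reticulum.

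The microRNA is shown first, because it is what the treatment was aimed at. Its 3p arm lies at chr12:109591781-109591802 on the + strand of GRCm38.p6 (RefSeq), and capitals mark its seed, bases 2 to 8. The labels do not name the arm.
miR-433-3p: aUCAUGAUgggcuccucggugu

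Some members are so alike that array probes for them overlap in sequence. The closest probe pairs of the deposited scanner files are shown for this reason, with capitals at the bases that differ within the stretch shown. The Gstp1 probe (chr19:4035908-4036723 in mm9) and a Gstp2 probe (chr19:4040983-4041042) had 5 mismatches over 35 aligned bases, of which 30 bases are given.
Gstp1 probe: cgcggcaaatatgTcaccCtCatctacaCC
Gstp2 probe: cgcggcaaatatgGcaccAtGatctacaGA
The Gsta1 probe (chr9:78090411-78090470) and the Gsta2 probe (chr9:78178856-78178915) had 4 mismatches over 50 bases, of which 30 bases with 3 mismatches are given.
Gsta1 probe: tggcctctaatGgtttgcaattataaaaAG
Gsta2 probe: tggcctctaatTgtttgcaattataaaaTA
The brightest Gstm1 probe, which the design places at chr5:117082490-117082549, and the dimmer Gstm3 probe (chr3:107766615-107766674) had 2 mismatches over 27 bases.
Gstm1 probe: tcatCtacaataaagTctgaaacacac
Gstm3 probe: tcatGtacaataaagCctgaaacacac
The other Gstm probes lie together on chromosome 3 of mm9, so the chromosome 5 placement of that Gstm1 probe sets it apart from its gene's cluster. The Gstp2 and Gstm3 probes shown are not the ones that gave the main values of those genes. Whether RNA of 1 gene bound the probe of the other was not tested, and the values of Gsta1 and Gsta2, whose main probes are both shown, are uncertain as values of single genes.

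A level here is the log2 processed signal of a probe after subtraction of the 75th percentile of its array, so 0 is the level of the probe at that percentile. A log2 fold change is the mean level of the antagomir arrays minus that of the control arrays, and an interval beside it is limma's 95% interval. Levels of different probes cannot be compared with each other. On 5 arrays 55.2% to 58.5% of the spots for genes gave a signal well above background, on antagomir array 3 it was 73.6%, and all 6 arrays were on 1 slide. Of the 22991 genes, 3 (0.013%) passed an adjusted p of 0.05 by limma with Benjamini-Hochberg adjustment. All 15 cardiomyocyte markers tested were above background, and 13 of them had a positive fold change (median of the 15 0.20). The other 2 were Myh7 at −2.74, with separate groups, and Nppa at −1.71. The summed log2 level of the 15 was 12.39 to 12.44 on control and 12.39 to 12.53 on antagomir arrays. A summed log2 level is the log2 of the sum of the unlogged levels, so the brightest probes weigh most in it. With quantile scaling 6 of those 15 markers were higher, against 45.8% of all genes. All 14 fibroblast markers were lower with the antagomir (median −1.58, 10 of 14 at an unadjusted limma p under 0.05), with a summed log2 level of 9.72 to 10.22 on control and 8.70 to 9.31 on antagomir arrays. In a whole piece of tissue, fewer cells of a type and less RNA per cell cannot be told apart.

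No member gene was called different between the groups. By limma with Benjamini-Hochberg adjustment over all genes, 0 of 41 members passed an adjusted p of 0.05, and their adjusted p-values ran from 0.630 to 0.931. At an unadjusted limma p under 0.05, 3 members stood out, Gstm6 upward and Gstt3 and Gpx8 downward, which is 3 of 41 against a background of 7.21% of all genes (3.05% higher, 4.16% lower). The largest log2 fold changes were 0.93 for Gstm6 and −0.59 for Gstt3. The interval held 0 for 38 members, and 6 of 41 members had a fold change of 1.5 or more in either direction, against 15.1% of all genes.

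As a set, the members were more often above than below control. The log2 fold change was above 0 for 30 of 41 members, against 62.6% of all genes, and their median was 0.23, against 0.09 for all genes. The split depends on the scaling: with quantile scaling it was 29 higher and 12 lower, and with median scaling, under which the median over all genes is −0.38, it was 8 higher and 33 lower. Relative to the median of all genes, 25 of 41 members lay above it with the main scaling and with median scaling, and 30 of 41 with quantile scaling. Control and antagomir arrays did not overlap for 7 members against a background of 15.7% of genes. In 2 of the 7 (Gstm6 and Txn2) the antagomir arrays were the higher, with a background of 8.78%, and in 5 (Gstt3, Gpx7, Gpx8, Prdx4 and Gsta3) the lower, with a background of 6.93%.

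**Figure D1:**
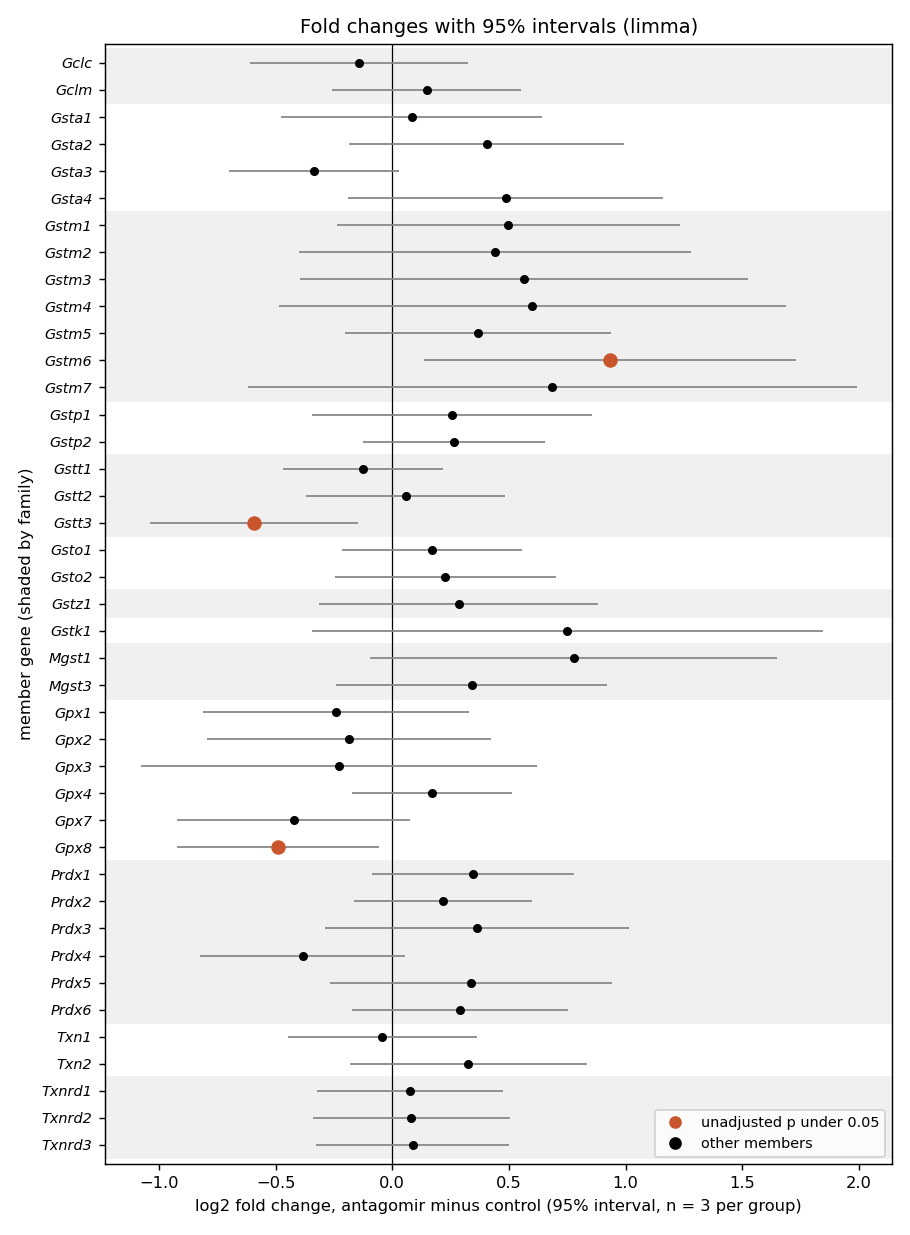
Log2 fold change of each of the 41 tested members, antagomir minus control, with limma's 95% interval (n = 3 arrays per group), shaded by family. Gstm6, Gstt3 and Gpx8, in orange, are the 3 whose interval leaves out 0; the points of all 7 mu-class genes lie right of 0 and those of 5 of the 6 Gpx genes left of it.

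Control array 2 stood apart for these genes. It had the lowest of the 6 values for 29 of 41 members, against 36.7% of all genes, while control arrays 1 and 3 had the lowest value for 0 members. It had the highest value for 5 members, against a background of 19.5%. The spread among the control arrays was the wider of the 2 groups for 31 of 41 members (75.6%), against 39.8% of all genes, with a median SD of 0.28 among control and 0.20 among antagomir arrays. Without control array 2 the median of the members was 0.10 (all genes 0.05), with 28 higher and 13 lower, and 32 members moved by more than 1.5 times, 31 of them toward or past 0. The number of members at an unadjusted limma p under 0.05 was then 1, with 911 of 22991 genes in all. Without antagomir array 2 it was 5, with 2468 genes in all. Control array 2 was noticed after the values were seen, and the labels give nothing that sets it apart.

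**Figure D2:**
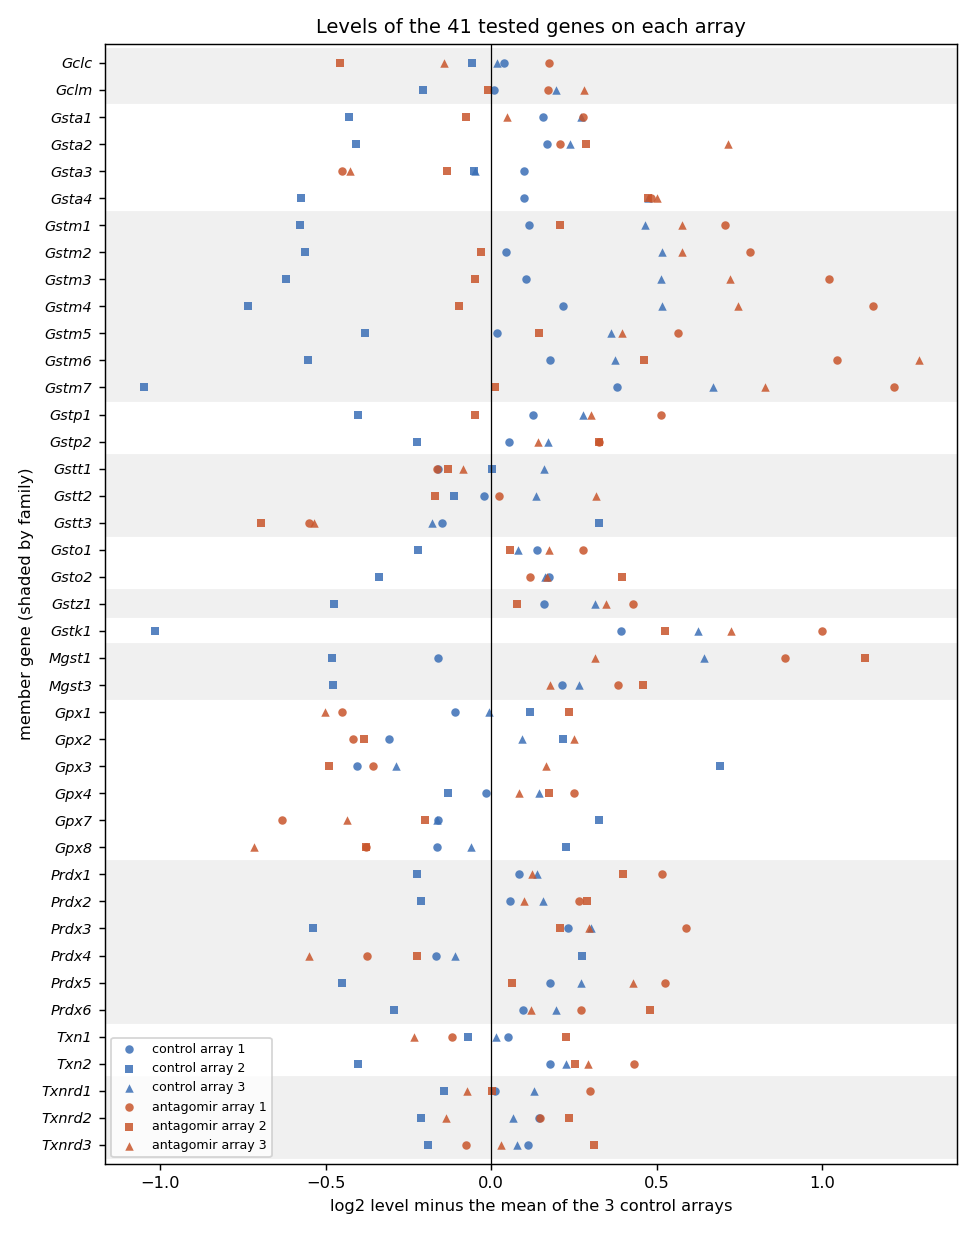
Level of each member on each of the 6 arrays, relative to the mean of the 3 control arrays (log2), with genes grouped by family. Control array 2 is the lowest of the 6 for 29 of 41 members and the highest for 5, among them Gpx7, Gpx8 and Prdx4.

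**Figure D3:**
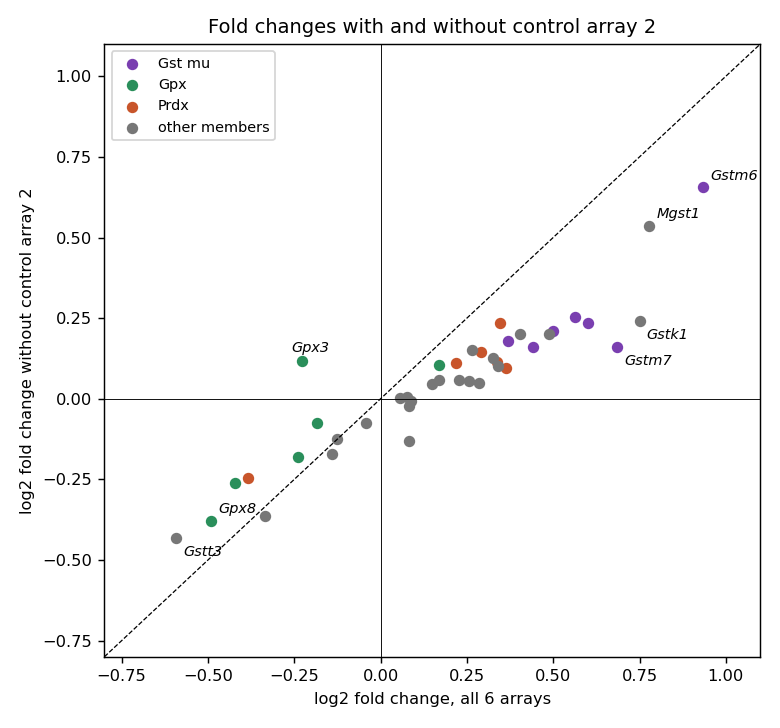
Log2 fold change of each member over all 6 arrays (horizontal axis) against the value without control array 2 (vertical axis), with the line of equal values. Of 41 members, 31 moved toward or past 0 by more than 1.5 times, and the median went from 0.23 to 0.10.

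The genes of glutathione synthesis had small fold changes. Gclc, the catalytic subunit of glutamate-cysteine ligase, had levels of 1.69, 1.59 and 1.67 on control arrays 1, 2 and 3 and 1.82, 1.19 and 1.51 on antagomir arrays 1, 2 and 3. The antagomir arrays held both the highest and the lowest value, and the log2 fold change was −0.14 (standard error 0.19, limma adjusted p = 0.794). Gclm, the modifier subunit that raises the activity of Gclc, had a fold change of 0.15, with overlapping groups. The interval of Gclc was −0.61 to 0.33 and that of Gclm −0.26 to 0.55.

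All 7 tested genes of the mu class were higher on the antagomir arrays, with log2 fold changes from 0.37 to 0.93 and a median of 0.56. These enzymes conjugate glutathione to electrophiles such as lipid aldehydes and epoxides. Gstm6 had levels of −0.59, −1.32 and −0.40 on control arrays 1, 2 and 3 and 0.28, −0.31 and 0.52 on antagomir arrays 1, 2 and 3. Each antagomir array lay above each control array, and the fold change was 0.93 (standard error 0.33, limma adjusted p = 0.666), interval 0.13 to 1.73. Both other Gstm6 probes gave fold changes of 0.97 and 0.81, with overlapping groups. The brightest probe of the gene is at chr3:107741766-107741825 in mm9.

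Gstm2, the mu member with the brightest probe, read 5.66, 5.05 and 6.13 in the control group and 6.39, 5.58 and 6.19 in the antagomir group. Here the groups overlapped, with control array 3 above antagomir array 2, and the log2 fold change was 0.44 (standard error 0.34, limma adjusted p = 0.695). The other mu genes had fold changes of 0.69 (Gstm7), 0.60 (Gstm4), 0.56 (Gstm3), 0.50 (Gstm1) and 0.37 (Gstm5). A dimmer Gstm4 probe gave only 0.21. Dimmer probes gave 0.70 for Gstm7, 0.52 for Gstm1, and 0.57 and 0.54 for Gstm2. For Gstm3 the dimmer probe, the one shown above, gave −0.80, and it was well above background on 3 of 6 arrays. The 7 genes shared their order over the arrays: control array 2 was the lowest of 6 in 7 of 7, control array 3 the highest control in 7 of 7, and antagomir array 2 the lowest antagomir array in 7 of 7. Under a slide-row block the mu median was 0.034, with 6 higher and 1 lower, and it was 0.34 without antagomir array 1 and 0.87 without antagomir array 2. Without control array 2 it was 0.21, with Gstm6 at 0.66, Gstm7 at 0.16 and Gstm2 at 0.16. All 7 lay above the median of all genes under each of the 5 scalings tried, although with median scaling 2 of them, Gstm2 and Gstm5, had a fold change below 0.

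**Figure D4:**
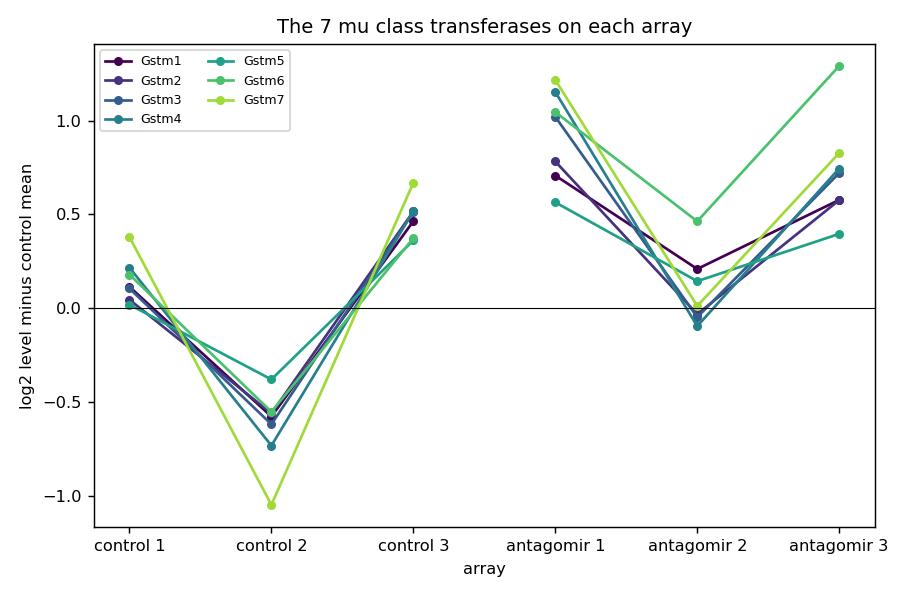
Log2 level of the 7 mu-class genes on each array, minus the mean of the 3 control arrays. Each line joins the values of 1 gene to show that the genes share a profile, and the arrays of a group have no order; control array 2 is the lowest point of all 7 lines.

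The alpha class was mixed. Gsta3, the alpha member with the brightest probe and known in mice for detoxifying aflatoxin epoxide, had levels of 4.27, 4.11 and 4.12 on control arrays 1, 2 and 3 and 3.72, 4.03 and 3.74 on antagomir arrays 1, 2 and 3. All 3 antagomir values were below all 3 control values, by a log2 fold change of −0.34 (standard error 0.15, limma adjusted p = 0.691). Gsta4, which handles the lipid aldehyde 4-hydroxynonenal, was at 0.49, Gsta2 at 0.40 and Gsta1 at 0.083. In these 3 genes control array 2 was the lowest, and without it the fold changes were 0.20, 0.20 and −0.13.

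Of the theta class, Gstt3 had the smallest unadjusted p of all members. Its levels were 1.20, 1.68 and 1.17 on control arrays 1, 2 and 3 and 0.80, 0.65 and 0.82 on antagomir arrays 1, 2 and 3. The groups were separate, with control array 2 the highest, and the log2 fold change was −0.59 (standard error 0.18, limma adjusted p = 0.630), interval −1.04 to −0.15. Without control array 2 it was −0.43. The probe lies at chr10:75236966-75237025 in mm9. Gstt1, a transferase and peroxidase of broad substrate range, read 3.63, 3.79 and 3.95 in the control group and 3.63, 3.66 and 3.71 in the antagomir group. Those groups overlapped, with a fold change of −0.13 (standard error 0.14, limma adjusted p = 0.761), and Gstt2 was at 0.058.

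Gstk1, the mitochondrial and peroxisomal kappa transferase, had the largest fold change outside the mu class and Mgst1, and 1 control array set most of it. Its levels were 5.51, 4.10 and 5.74 on control arrays 1, 2 and 3 and 6.11, 5.64 and 5.84 on antagomir arrays 1, 2 and 3. Control array 3 lay within the antagomir range, control array 1 just below it and control array 2 far below. The log2 fold change was 0.75 (standard error 0.45, limma adjusted p = 0.691), and 0.24 without control array 2.

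In the pi class, whose enzymes conjugate small electrophiles and also bind stress kinases, Gstp2 read 6.65, 6.37 and 6.77 in the control group and 6.93, 6.93 and 6.74 in the antagomir group. Antagomir array 3 lay just below control array 3, so the groups overlapped at a fold change of 0.26 (standard error 0.16, limma adjusted p = 0.691). Gstp1 was at 0.26. In the omega class, Gsto1, a reductase of dehydroascorbate and of glutathionylated proteins, read 6.82, 6.46 and 6.76 in the control group and 6.95, 6.73 and 6.85 in the antagomir group. Control array 1 was above antagomir array 2, and the fold change was 0.17 (standard error 0.16, limma adjusted p = 0.723), with 0.23 for Gsto2. Gstz1, the maleylacetoacetate isomerase of tyrosine breakdown, read 3.88, 3.24 and 4.03 in the control group and 4.14, 3.79 and 4.06 in the antagomir group. Control array 2 was again the lowest, and the fold change was 0.28 (standard error 0.24, limma adjusted p = 0.710), or 0.048 without that array.

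The microsomal transferases are membrane proteins that also reduce lipid hydroperoxides. Mgst3 had levels of 6.21, 5.52 and 6.26 on control arrays 1, 2 and 3 and 6.38, 6.46 and 6.18 on antagomir arrays 1, 2 and 3. Only control array 2 lay well below the rest, and the log2 fold change was 0.34 (standard error 0.24, limma adjusted p = 0.691), or 0.10 without it. Mgst1, named after its values were seen, read 3.93, 3.61 and 4.74 in the control group and 4.98, 5.22 and 4.41 in the antagomir group. Control array 3 was above antagomir array 3, and the fold change was 0.78 (standard error 0.36, limma adjusted p = 0.691), or 0.54 without control array 2. The adipocyte markers also differed between arrays: 5 of 5 tested were higher with the antagomir (median 3.20), and Lep and Ucp1 were not well above background. The summed log2 level of the 5 was −3.17, 0.61 and 2.58 on control arrays 1, 2 and 3. On antagomir arrays 1, 2 and 3 it was 1.30, 4.21 and 3.96. Antagomir array 3 was thus the lowest antagomir array for Mgst1 but not for these markers. The part of these markers in the Mgst1 value was not tested.

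Of the glutathione peroxidases, 5 of 6 tested members were lower with the antagomir, with a median of −0.23. The median moved with single arrays, to −0.13 with 2 higher and 4 lower without control array 2, to −0.15 without antagomir array 1, to −0.38 without control array 1 and to −0.39 without antagomir array 3. Gpx8, a peroxidase of the endoplasmic reticulum membrane, had levels of 3.58, 3.97 and 3.68 on control arrays 1, 2 and 3 and 3.37, 3.37 and 3.03 on antagomir arrays 1, 2 and 3. Every antagomir array was below every control array, and the log2 fold change was −0.49 (standard error 0.18, limma adjusted p = 0.674), interval −0.92 to −0.057. The probe lies at chr13:113833213-113833272 in mm9. Gpx7, a peroxidase of the same compartment named after its values were seen, read −0.43, 0.059 and −0.43 in the control group and −0.90, −0.47 and −0.70 in the antagomir group. The groups were separate here too, though the highest antagomir and the lowest control value differed by little, and the fold change was −0.42 (standard error 0.20, limma adjusted p = 0.691).

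Gpx4, which reduces lipid peroxides within membranes and guards against ferroptosis, was the Gpx member with the brightest probe and had levels of 7.77, 7.65 and 7.93 on control arrays 1, 2 and 3 and 8.04, 7.96 and 7.87 on antagomir arrays 1, 2 and 3. The groups overlapped and the log2 fold change was 0.17 (standard error 0.14, limma adjusted p = 0.703), with a value of −0.022 under quantile scaling. Gpx1, the main peroxidase of the cytosol and also found in mitochondria, was at −0.24 and Gpx2 at −0.18. Gpx3, the secreted plasma form, was at −0.23, with control array 2, at 5.56, the highest of 6. Without that array it was 0.12. Apart from Gpx4, the Gpx members were below the median of all genes under each of the 5 scalings.

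Of the peroxiredoxins, 5 of 6 were higher, with fold changes from 0.22 to 0.36, and Prdx4 was lower. Prdx5, found in mitochondria, peroxisomes and cytosol, had levels of 7.06, 6.43 and 7.15 on control arrays 1, 2 and 3 and 7.40, 6.94 and 7.31 on antagomir arrays 1, 2 and 3. Control array 3 was above antagomir array 2 and control array 2 below all, at a log2 fold change of 0.34 (standard error 0.25, limma adjusted p = 0.692). The mitochondrial Prdx3 was at 0.36, the cytosolic Prdx1 and Prdx2 at 0.35 and 0.22, and Prdx6, which also reduces phospholipid peroxides, at 0.29. Without control array 2 these 5 were at 0.11, 0.096, 0.23, 0.11 and 0.14 in the same order. With median scaling all 5 had fold changes below 0, and all 5 still lay above the median of all genes.

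Prdx4, the peroxiredoxin of the endoplasmic reticulum, was described after its values were seen and had levels of 2.02, 2.46 and 2.08 on control arrays 1, 2 and 3 and 1.81, 1.96 and 1.64 on antagomir arrays 1, 2 and 3. The highest was control array 2, the groups did not overlap, and the log2 fold change was −0.38 (standard error 0.18, limma adjusted p = 0.691). Gpx7, Gpx8 and Prdx4, 3 peroxidases of the endoplasmic reticulum grouped after their values were seen, were lower on all antagomir arrays than on any control array, as were 6.93% of all genes (median −0.42, and −0.26 without control array 2). They were below 0 and below the median of all genes under each of the 5 scalings. The group does not stand for the compartment, since the microsomal Mgst1 and Mgst3 lie in the same membrane system and were at 0.78 and 0.34. The fibroblast markers were also highest on control array 2, with a summed log2 level of 9.88, 10.22 and 9.72 on control and 8.96, 9.31 and 8.70 on antagomir arrays. So were the smooth muscle and pericyte markers, of which 7 of 8 were lower (median −0.56, 4 at an unadjusted limma p under 0.05), with a summed log2 level of 6.96, 7.39 and 6.79 on control and 6.75, 6.35 and 6.57 on antagomir arrays. The part of these markers in the lower values of Gpx7, Gpx8 and Prdx4 was not tested.

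Txn2, the mitochondrial thioredoxin, had levels of 6.97, 6.39 and 7.02 on control arrays 1, 2 and 3 and 7.23, 7.05 and 7.09 on antagomir arrays 1, 2 and 3. All antagomir values were above all control values, but antagomir array 2 exceeded control array 3 by little. The log2 fold change was 0.33 (standard error 0.21, limma adjusted p = 0.691), or 0.13 without control array 2. A dimmer Txn2 probe, well above background on all 6 arrays, gave only 0.055, with overlapping groups. Txn1, the cytosolic thioredoxin, was at −0.042, with an interval of −0.45 to 0.36. The reductases were close to control: 0.076 for the cytosolic Txnrd1, 0.082 for the mitochondrial Txnrd2 and 0.088 for Txnrd3, a form with a glutaredoxin domain, with intervals that held 0. A group of 5 members found in mitochondria, Gstk1, Prdx3, Prdx5, Txn2 and Txnrd2, was chosen after the values were seen. All 5 were higher, with a median of 0.34. Without control array 2 the median was 0.11, with 4 higher and 1 lower. With median scaling 1 of the 5 was above 0. The group does not stand for the compartment, since Gstk1 is also peroxisomal and Prdx5 is also found in peroxisomes and cytosol. It also leaves out Gpx1, Gpx4 and Mgst1, which are found in mitochondria too and were at −0.24, 0.17 and 0.78. The median of the cardiomyocyte markers was also lowest on control array 2. Relative to the control mean it was 0.055, −0.14 and 0.11 on control arrays 1, 2 and 3 and 0.28, 0.13 and 0.26 on antagomir arrays 1, 2 and 3. Myh7 and Nppa were instead highest on control array 2, at 8.96 and 9.29. The part of these markers in the values of the 5 members was not tested.

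**Figure D5:**
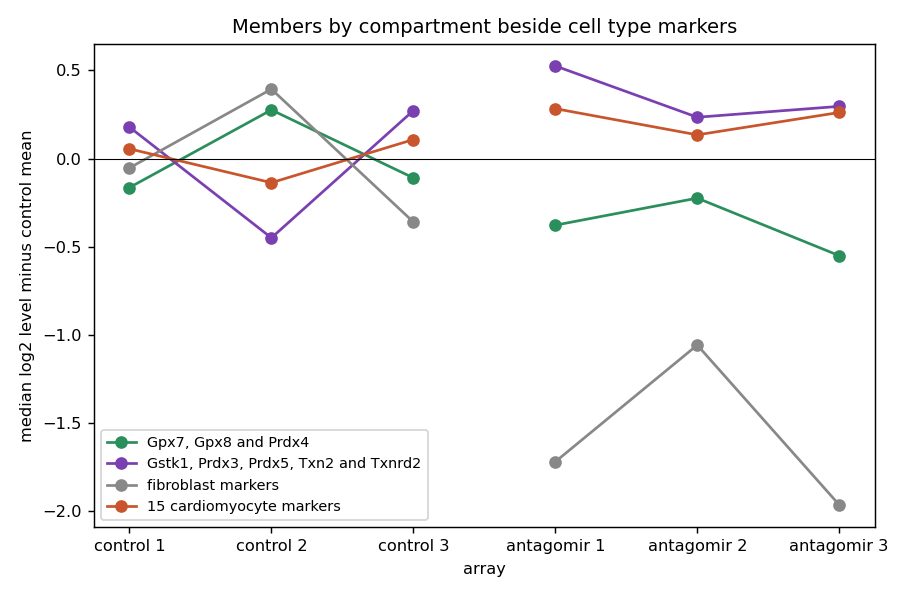
Median log2 level on each array, minus the control mean, of 3 peroxidases of the endoplasmic reticulum (Gpx7, Gpx8, Prdx4), of 5 members found in mitochondria (Gstk1, Prdx3, Prdx5, Txn2, Txnrd2) and of the fibroblast and cardiomyocyte markers. Lines join the arrays of 1 group, which have no order; control array 2 is the highest array for the first group of genes and for the fibroblast markers and the lowest for the mitochondrial members and the cardiomyocyte markers.

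Among 145 other genes tested from 8 lists of the same pathway, 0 passed the adjusted threshold by limma, with 4 higher (Slc25a39, Msrb1, Cat and Alox5) and 7 lower (Anpep, Txndc5, Nxn, Pxdn, Ugdh, Nox4 and Dio2) at an unadjusted p under 0.05, a number near the background of 7.21% of all genes. Of the 145, 85 were above 0 and 60 below, against 62.6% of all genes above 0. With quantile scaling 45.8% of all genes were above 0, the share to set beside the quantile counts of the lists below. With median scaling the median of each of the 8 lists was below 0, from −0.58 to −0.12. For each list the 3 genes with the smallest p are named. Of 19 genes of glutathione supply and recycling, 10 were higher and 9 lower (median 0.018), or 8 and 11 with quantile scaling. They included Anpep, an aminopeptidase that splits the dipeptide left from glutathione, at −0.96, Slc25a39, the mitochondrial glutathione importer, at 0.59, and the dipeptidase Dpep1 at 0.58. Of 26 glutaredoxins and thioredoxin-fold partners, 15 were higher and 11 lower (median 0.033), or 11 and 15 with quantile scaling. The methionine sulfoxide reductase Msrb1 was at 0.65, the disulfide isomerase Txndc5 of the endoplasmic reticulum at −0.73 and nucleoredoxin, Nxn, at −0.32.

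Of 12 other genes that remove superoxide and peroxide or limit their formation, 10 were higher and 2 lower (median 0.35), or 8 and 4 (median 0.12) with quantile scaling. Catalase, Cat, which splits hydrogen peroxide in peroxisomes, was at 0.36, the uncoupling protein Ucp3 at 0.64 and Pxdn, a peroxidase that cross-links collagen IV, at −0.45. Of 18 genes of NADPH supply, 11 were higher (median 0.13), with the malic enzyme Me1 at 0.40, the mitochondrial isocitrate dehydrogenase Idh2 at 0.31 and the mitochondrial NAD kinase Nadk2 at 0.64. Of 14 oxidases and their subunits that make superoxide or peroxide, 7 were higher and 7 lower (median −0.11), or 4 and 10 (median −0.31) with quantile scaling. Nox4, which releases hydrogen peroxide, had levels of 0.59, 2.53 and 0.51 on control arrays 1, 2 and 3 and −2.49, −1.20 and −1.91 on antagomir arrays 1, 2 and 3. Its groups did not overlap, and the log2 fold change was −3.07 with a limma adjusted p of 0.538. Xanthine dehydrogenase, Xdh, was at 0.39 and Noxa1, an activator subunit, at 0.69.

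The Nrf2 list, with regulators and other targets of the transcription factor that drives many transferase genes, had 11 genes higher and 17 lower of 28 (median −0.045). Its leading genes were Ugdh, the UDP-glucose dehydrogenase, at −0.52, the aldo-keto reductase Akr1b8 at −0.61 and the carbonyl reductase Cbr3 at −0.55. Of 18 other selenoproteins and genes of selenoprotein synthesis, 13 were higher and 5 lower (median 0.13), or 10 and 8 (median 0.029) with quantile scaling. Dio2, the deiodinase that activates thyroid hormone, had levels of 0.47, 3.29 and 1.21 on control arrays 1, 2 and 3 and −2.24, −0.78 and −1.75 on antagomir arrays 1, 2 and 3. Both groups were wide, yet they did not overlap, and the fold change was −3.24 with a limma adjusted p of 0.556. Selenom was at −0.36 and Selenon at −0.28. Of 12 genes of iron-dependent lipid peroxidation, 8 were higher (median 0.24), with the lipoxygenase Alox5 at 0.86, the coenzyme Q reductase Aifm2 at 0.35 and the cyclooxygenase Ptgs2 at −0.97.

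Promoters were read because many of these genes are known targets of Nrf2, which binds the antioxidant response element. Its core was searched as TGACNNNGC on both strands of RefSeq promoters (GRCm38.p6) from 250 bases before to 50 bases after each gene's start. A promoter was at hand for 40 of the 44 members with a usable probe, whether tested or too dim to test. Of the 40, 7 (17.5%) held the letters, against 14.0% of 27025 genes and 12.4% of 32851 promoters of the same length. The 7 are printed on the strand that carries the letters, with the core in capitals and 10 bases on each side.
Gclm, chr3:122245413-122245441: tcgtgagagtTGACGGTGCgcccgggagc
Gsta3, chr1:21240454-21240482: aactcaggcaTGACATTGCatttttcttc
Gstm5, chr3:107895802-107895830: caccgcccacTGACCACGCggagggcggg
Gstm7, chr3:107931725-107931753: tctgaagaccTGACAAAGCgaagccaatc
Mgst1, chr6:138140461-138140489: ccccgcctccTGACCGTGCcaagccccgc
Prdx1, chr4:116685456-116685484: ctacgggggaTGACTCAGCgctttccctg
Txnrd1, chr10:82859104-82859132: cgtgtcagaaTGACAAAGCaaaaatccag
The core lay on the gene's own strand in Gsta3, Gstm5 and Gstm7 and on the other strand in Gclm, Mgst1, Prdx1 and Txnrd1. In Prdx1 the letters overlap TGACTCA, the binding motif of AP-1. The log2 fold changes of these genes were 0.15 for Gclm, −0.34 for Gsta3, 0.37 for Gstm5, 0.69 for Gstm7, 0.78 for Mgst1, 0.35 for Prdx1 and 0.076 for Txnrd1. That is 6 of 7 above 0, beside 30 of 41 members and 62.6% of all genes. A match describes the letters in this window and is not a measured binding site.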

How the data were processed

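Total RNA was labelled with Cy3 and hybridised to 1-colour Agilent arrays. Per the file headers, Agilent Feature Extraction 10.7.1.1 measured the intensities of each spot in the deposited scanner files: a mean signal, a local background and a processed signal already corrected for background. The authors' deposited table also holds normalised log2 columns, used as an alternative. The remaining columns used are other values, per the file headers: flags of 0 or 1 and text. Coordinates of probes come from the array's mm9 design. No annotation of mm9 was used, so exons and UTRs are not given. Symbols were updated from RefSeq (GRCm38.p6).

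Outlier spots were dropped and repeat spots of a probe averaged. A probe had to be well above background on 3 of the 6 arrays (31716 probes), and each gene was read from its probe of highest mean (22991 genes). Of the members, 14 had more than 1 tested probe, and those of 1 (Gstm3) differed in sign. The 2 groups were fitted in limma 3.58.1 (R 4.3.3), two-sided, with Benjamini-Hochberg adjustment over all genes, after a check on simulated data. A permutation test of 3 against 3 cannot give a p below 0.1. Sequences were read with Python 3.11.15.

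The members and lists were chosen with earlier results of these data known. Values on every array are given for the member of each family with the brightest probe, for members at an unadjusted p under 0.05, and for a few named after their values were known. Alternatives were other scalings, normexp with an offset of 50, the authors' table, filters on dim probes, other ways to combine probes, other variance models, blocks, and arrays left out in turn. A looser adjusted threshold of 0.1 was counted as an alternative too.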

Additional observations from a re-analysis of the deposited data

How the results depend on the processing

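Of 22 alternatives, which include a looser adjusted threshold of 0.1, 0 put a member past the adjusted threshold. The p-values were limma's except in an equal-variance test without moderation. The lowest adjusted p by these tests over members and alternatives was 0.276. The number of members at an unadjusted p under 0.05 was 3 and became 0 with median scaling or a slide-row block, 7 with normexp and quantile scaling, and 6 with a variance trend or with array weights, whose estimation stopped before it converged. It ran from 1 to 5 with 1 array left out. The 30 higher members became 8 with median scaling and 46 of 59 probes when each probe was tested by itself. The median of 0.23 became −0.24 with median scaling and 0.014 with a slide-row block, under which the medians of the mu class, Prdx and Mgst were 0.034, 0.065 and 0.11. With 1 array left out it ran from 0.10 to 0.31. Of the pathway genes, 2 passed the adjusted threshold with median scaling, as did 199 of 22991 genes in all. That scaling shifts all genes down. Row 1 of the slide holds control arrays 1 and 2 alone, so that block compares control array 3 with the antagomir arrays.

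The replicate number as a block gave 7 members with a limma p under 0.05 before adjustment and 0 after it. Over all genes, 2272 of 22991 were under 0.05 before adjustment with that block. Same-numbered arrays deviated from their group means with correlations of 0.22, 0.14 and −0.049, control array 3 correlated best with antagomir array 1 (0.17), and nothing in the labels ties the numbers, so the arrays were not treated as pairs.

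The sign held under all alternatives for 15 members and turned under at least 1 for 26. With median scaling the log2 fold change was −0.32 (Gclm), −0.30 (Gpx4), −0.39 (Gsta1), −0.067 (Gsta2), −0.029 (Gstm2), −0.10 (Gstm5), −0.30 (Gsto1), −0.24 (Gsto2), −0.22 (Gstp1), −0.21 (Gstp2), −0.41 (Gstt2), −0.19 (Gstz1), −0.13 (Mgst3), −0.12 (Prdx1), −0.25 (Prdx2), −0.11 (Prdx3), −0.13 (Prdx5), −0.18 (Prdx6), −0.14 (Txn2), −0.40 (Txnrd1), −0.39 (Txnrd2) and −0.38 (Txnrd3). Under a slide-row block it was −0.047 (Gclm), 0.059 (Gpx3), −0.19 (Gsta1), −0.074 (Gstm2), −0.022 (Gstp1), −0.078 (Gstt2), −0.028 (Gstz1) and −0.054 (Txnrd1). With array weights it was 0.037 (Gpx3) and −0.084 (Txnrd3). For Gpx4 it was −0.022 with quantile scaling, −0.041 with normexp and −0.021 in the authors' deposited table. For Gstm3 it was −0.80 with the dimmer probe and −0.12 with the mean of its probes. Leaving out an array gave 0.12 (Gpx3), −0.13 (Gsta1), −0.024 (Txnrd2) and −0.0072 (Txnrd3) without control array 2, −0.014 (Gsta1) and −0.035 (Txnrd1) without antagomir array 1, 0.016 (Gclc) and −0.024 (Txnrd3) without antagomir array 2 and −0.072 (Gstt2) and 0.053 (Txn1) without antagomir array 3. Over all arrays left out in turn, Gpx3 ran from −0.43 to 0.12, Txnrd1 from −0.035 to 0.15 and Txnrd2 from −0.024 to 0.19. The cause of these turns was not tested. On arrays, depth is signal over background, and it left Gpx5, Gpx6 and Gstt4 without a test; 3 arrays a group limit the precision of all values.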
